A study of Homo sapiens with 5 samples.

Results

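The globin genes and the gene for the alpha globin chaperone were examined in K562 cells with an induced short hairpin RNA (shRNA) against the histone demethylase JMJD1B (current symbol KDM3B) or with a control shRNA. The set comprised the alpha-like genes HBZ, HBA1, HBA2 and HBQ1, the beta-like genes HBE1, HBG1, HBG2, HBD and HBB, and AHSP. All probes carrying these symbols in the platform annotation were taken from the 19144 rows deposited with sample names. Those rows are a part of the 47321 probes in a larger deposited table, and the other probes were not examined. That gave 11 probes of 10 genes, among 19105 probes and 11041 genes tested. All 11 passed the filter on dim probes, a detection p-value under 0.05 on at least 2 arrays, and each was detected on all 5 arrays. The filter kept 19105 of the 19144 rows, so passing it says little about these genes.

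K562 is a human leukaemia cell line, grown from a patient with chronic myeloid leukaemia and much used as a model of early red cells. Both groups carried a stable, doxycycline-inducible hairpin, were given 1 µg/ml doxycycline for 48 h in medium with 5% serum, and differed by the hairpin: JMJD1B in 3 samples, control in 2. Biotin-labelled cRNA from 0.55 µg of total RNA was hybridised to Illumina expression beads. The labels do not say whether replicates were separate cultures, how many hairpins or clones stand behind a group, or what untreated cells of each line look like. Hence a p-value here reflects only how far these samples scatter, which may be technical, and the effect of the hairpin and any other difference between both stable lines cannot be told apart. The arrays were run to look for targets of JMJD1B, which removes methyl groups from lysine 9 of histone H3 and, by the title, takes part in activating LMO2. The knocked-down gene itself was not analysed here.

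Haemoglobin is a tetramer of alpha-like and beta-like chains around haem. The alpha-like genes lie together on chromosome 16 and the beta-like genes on chromosome 11, and each cluster switches during development from embryonic to fetal and adult genes under distant enhancers. K562 cells are known for making embryonic and fetal globins, with little or no adult beta globin, and for making more of them when given haem. AHSP binds free alpha globin and keeps it from precipitating.

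Each labelled row was named by the probe of the larger deposited table that has the same 5 signals, because the IDs printed beside the labelled rows are out of order. For the globins the choice is visible. The mean signal of the HBG2 probe was 65557.8 by matched signals, while the row printed with its ID had 162.6. The HBZ probe had 11797.2 against 340.1, and the HBE1 probe 15877.5 against 676.5. HBB, in contrast, had 187 by matched signals and 463.2 by the printed ID.

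Signals are bead intensities as deposited, and differences are on the log2(signal + 16) scale after quantile normalization, given as knockdown minus control ± standard error (SE) with n = 3 and 2. Array medians were 498.65, 466.85 and 464.48 in the knockdown and 455.63 and 458.03 in the control, so all knockdown arrays were brighter before normalization. The highest signal per array ran from 67779.3 to 70208, and the pooled background was 124.04. The signals of different probes cannot be ranked as amounts of RNA, since probes bind with different strength. In bulk RNA, fewer cells making a globin and less RNA per cell cannot be told apart.

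**Figure D1:**
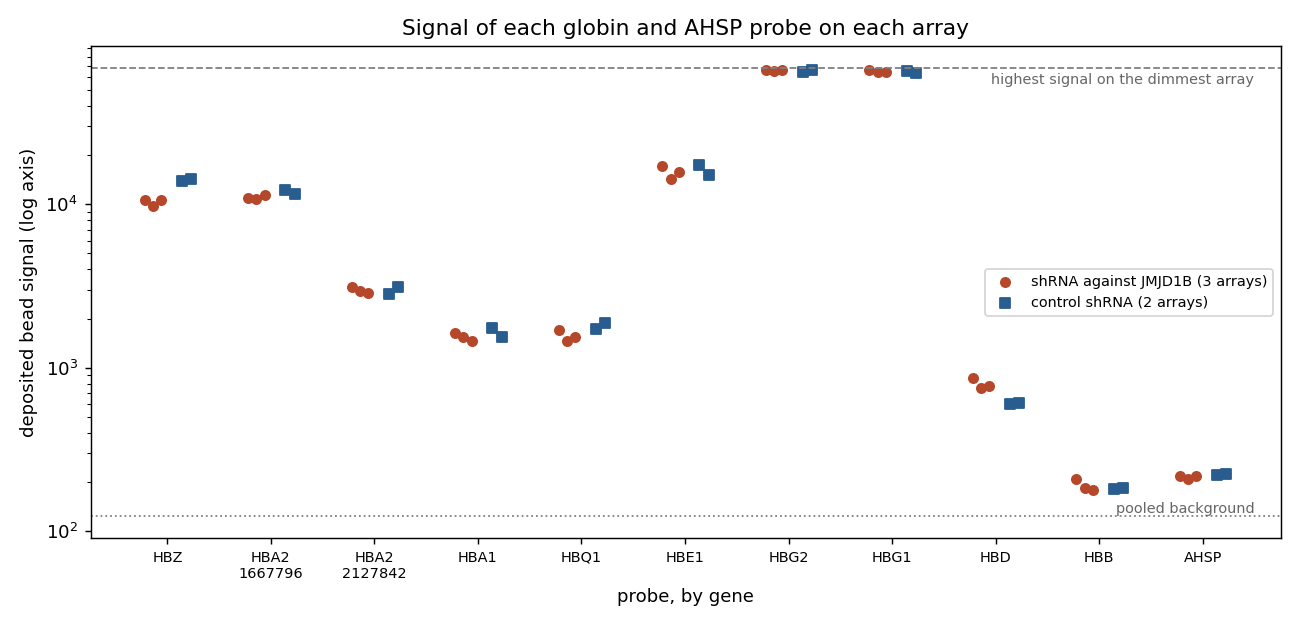
Deposited bead signal (log axis) of each of the 11 probes on each array, with circles for the 3 knockdown arrays and squares for the 2 control arrays. HBG1 and HBG2 lie just under the highest signals, HBB and AHSP just above the pooled background of 124.04 (dotted), and HBZ is lower in all 3 knockdown arrays than in both controls.

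Of the 11 probes, 1 rose (HBD) and 2 fell (HBZ and HBQ1) at an adjusted p under 0.05 in limma, over all probes tested. Of all 19105 probes, 5.07% passed in either direction, 2.35% higher and 2.72% lower. The median difference of the 11 probes was -0.12, against -0.00 over all probes, and 9 of the 11 were below 0, against 50.4% of all probes. Without normalization, which leaves the median of all probes at 0.07, 7 of the 11 were below 0, against 26.9% of all probes. On the normalized scale, the groups did not overlap for 6 of the 11 probes, 1 higher and 5 lower. Among all probes 37.8% did not overlap, 17.6% higher and 20.2% lower.

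**Figure D2:**
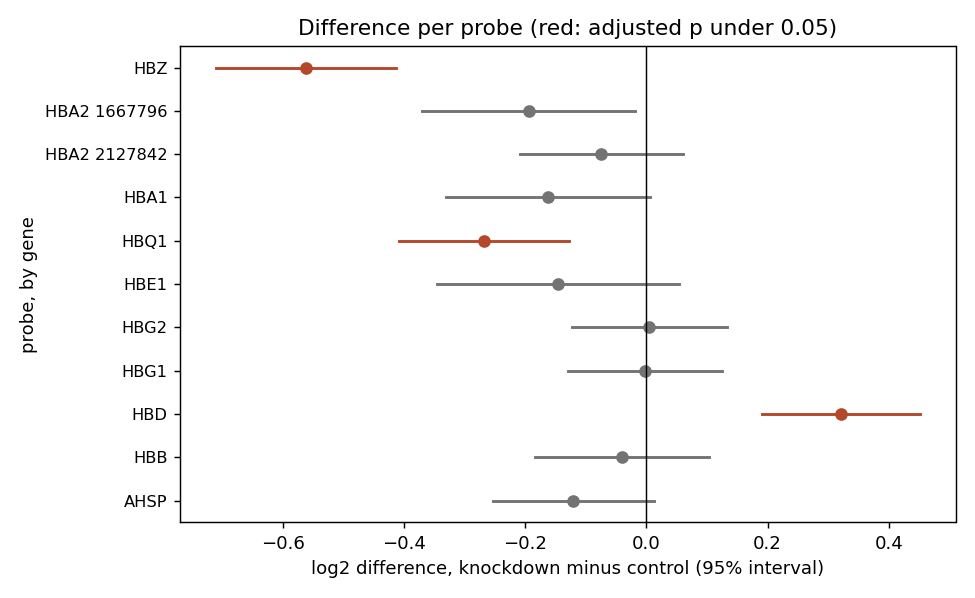
Log2 difference (knockdown minus control) of each probe as a point, with its 95% interval from limma as a line; red marks an adjusted p under 0.05. HBZ, HBQ1 and HBD are red, and the 95% interval of HBA2 probe ILMN_1667796 also lies below 0 although its adjusted p was 0.191.

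HBZ, the embryonic alpha-like chain, had the largest change of the set and was lower in the knockdown. Its probe ILMN_1713458 read 10540, 9685 and 10554 on the knockdown arrays and 13936 and 14271 on the control arrays. The groups were well apart, with the 3 knockdown values within a narrow band. Mean normalized levels were 13.29 ± 0.08 (SD, n = 3) with the JMJD1B hairpin and 13.85 ± 0.04 (SD, n = 2) with the control hairpin. HBZ fell by 0.56 ± 0.07 on the log2 scale, a 1.48-fold lower level (limma adjusted p = 0.00149; 95% interval -0.71 to -0.41). Of all 19105 probes, 95 (0.497%) differed by at least as much in either direction. No alternative setting and no left-out array ended this call.

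The adult alpha genes HBA1 and HBA2 encode the same protein, and their transcripts are near-identical, so their probes may not tell them apart. Probe ILMN_1667796 of HBA2 read 10978, 10696 and 11361 in the knockdown and 12266 and 11480 in the control. Its groups did not overlap, but the gap was small beside the spread within the control. The difference was -0.19 ± 0.08 and was not called (limma adjusted p = 0.191). The second HBA2 probe, ILMN_2127842, read 3123, 2935 and 2849 against 2823 and 3119, and its difference was -0.07 ± 0.06 (limma adjusted p = 0.532). These deposited signals overlapped, whereas the normalized levels were lower in the knockdown without overlap. The HBA1 probe read 1624, 1542 and 1450 against 1754 and 1538, with the lower control value inside the range of the knockdown. Its difference was -0.16 ± 0.08 (limma adjusted p = 0.255; 95% interval -0.33 to 0.01). All 3 adult alpha probes had negative differences after quantile, median or cyclic loess normalization and none passed the test; without normalization ILMN_2127842 was at 0.00. Their sizes rest on single control arrays. Without control replicate 1 or 2, HBA1 was at -0.04 or -0.28, ILMN_1667796 at -0.10 or -0.29 and ILMN_2127842 at -0.12 or -0.02, and none was called.

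HBQ1 encodes theta globin, an alpha-like chain at the end of the cluster with no settled role in haemoglobin. It read 1696, 1462 and 1544 in the knockdown and 1714 and 1885 in the control. On the normalized scale the levels were 10.60 ± 0.05 (SD, n = 3) and 10.87 ± 0.07 (SD, n = 2), without overlap. HBQ1 fell by 0.27 ± 0.06, a 1.20-fold lower level (limma adjusted p = 0.0391). The call was lost without any 1 of the 5 arrays (adjusted p from 0.0793 to 0.184 in limma). It was also lost with median scaling (0.0599), no normalization (0.183), both background corrections (0.132 and 0.11) and the replicate block (0.139).

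HBE1, the embryonic beta-like chain, was not called. Its probe read 17025, 14278 and 15780 in the knockdown and 17291 and 15013 in the control, so the groups overlapped. The difference was -0.15 ± 0.09 (limma adjusted p = 0.395), with a 95% interval of -0.35 to 0.05. The 2 control arrays differed from each other more than the groups did: normalized levels were 14.18 and 13.89. Without control replicate 1 the difference of HBE1 was 0.00, and without control replicate 2 it was -0.29, uncalled in both cases.

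The fetal genes HBG1 and HBG2 encode gamma chains that differ by a single residue, and their probes may also read both. HBG1 read 66224, 64055 and 64658 in the knockdown and 65577 and 63435 in the control. HBG2 read 65930, 65137 and 66519 against 64152 and 66051. Both sets of values overlapped, and the differences were -0.00 ± 0.06 for HBG1 and 0.01 ± 0.06 for HBG2 (limma adjusted p = 0.985 and 0.972). These probes sat near the top of the range: at most 0.25% of labelled probes were brighter than HBG1 on any array. Among the 98 probes with a mean signal over 60000, 0 were called by limma, against 5.07% of all probes. Their largest absolute difference was 0.08. A change in gamma globin may not show on these arrays, but this was not tested.

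HBD, the minor adult beta-like chain of haemoglobin A2, moved the other way. Its probe read 863.2, 755.7 and 773 in the knockdown and 598 and 606.2 in the control. All 3 knockdown arrays were above both controls, which nearly coincided. The normalized level was 9.63 ± 0.04 (SD, n = 3) against 9.31 ± 0.00 (SD, n = 2). HBD rose by 0.32 ± 0.06, a 1.25-fold higher level (limma adjusted p = 0.0147; 95% interval 0.19 to 0.45). The call was lost with both background corrections (limma adjusted p = 0.0691 and 0.0532), with the replicate block (0.0839), and without knockdown replicate 1 (0.0542), control replicate 1 (0.0731) or control replicate 2 (0.0792). The difference itself stayed between 0.30 and 0.39.

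The sequence before the HBD start site is shown because HBD was the only member that rose and the only 1 of the 10 matched in the RefSeq promoter table (GRCh38.p14). It covers the 250 bases upstream of the RefSeq start, chr11:5234484-5234733 on the minus strand, and capitals mark motif matches on either strand.
HBD: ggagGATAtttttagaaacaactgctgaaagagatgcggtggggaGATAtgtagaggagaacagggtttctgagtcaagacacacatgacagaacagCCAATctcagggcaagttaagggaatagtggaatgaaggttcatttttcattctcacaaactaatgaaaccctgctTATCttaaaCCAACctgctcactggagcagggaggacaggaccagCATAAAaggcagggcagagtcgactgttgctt

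The motifs searched on both strands were GATA (the core letters of GATA1 sites), CACCC (the core of KLF1 sites), CCAAT with its variant form CCAAC, and TATAAA with its variant form CATAAA. The motif GATA matched at 3 places: bases -246 to -243 and -205 to -202 on the gene's strand, and -77 to -74 on the other, where it is printed as TATC. The motif CCAAT matched at -153 to -149, CCAAC at -68 to -64 and CATAAA at -32 to -27, and no matches overlapped. CACCC and TATAAA had 0 matches. Such short motifs are common: among 35116 promoters cut the same way, 45.6% held GATA, 54.7% CACCC, 32% CCAAT, 33% CCAAC, 10.7% TATAAA and 9.64% CATAAA. The matches are letters in a window, not sites shown to be bound in these cells.

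HBB, the adult beta chain, was close to background. Its probe read 207.5, 183.4 and 177.8 in the knockdown and 181.6 and 184.8 in the control, where the lowest detected signals per array ran from 153.3 to 172.93. Its groups overlapped, and the difference was -0.04 ± 0.06 (limma adjusted p = 0.779). Between 80.85% and 88.95% of labelled probes were brighter than HBB, so a change in a trace of adult beta globin would be hard to see.

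AHSP was also dim. Its probe read 218, 207.9 and 218.2 in the knockdown and 221.5 and 223.1 in the control. The groups lay side by side without overlap, yet the difference of -0.12 ± 0.06 was not called (limma adjusted p = 0.283). Background still in these signals would shrink any difference of HBB or AHSP. After the pooled background was subtracted, AHSP was at -0.26 and HBB at -0.11, and both remained uncalled (limma adjusted p = 0.21 and 0.693).

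Whether HBZ changed alike with other globins was asked of the per-array log2 difference between probes. HBZ minus HBE1 was -0.68, -0.54 and -0.59 on the knockdown arrays and -0.30 and -0.07 on the control arrays, an unequal change of -0.42 ± 0.10. Against the 2 HBA2 probes the unequal change was -0.37 ± 0.06 and -0.49 ± 0.10, and against HBA1 -0.40 ± 0.11. Pairs of HBZ with HBG1 and HBG2 were also computed, but these probes may not show a change, so the pairs restate the fall of HBZ. HBD minus HBB shifted the other way, by 0.36 ± 0.04. HBB was close to background, where a change is hard to see, so this pair restates the rise of HBD. Each of the 7 pairs computed had an exact two-sided permutation p of 0.1 (0.1 after adjustment over the 7 pairs), the smallest that 3 against 2 arrays allows. The design therefore could not pass 0.05 here.

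**Figure D3:**
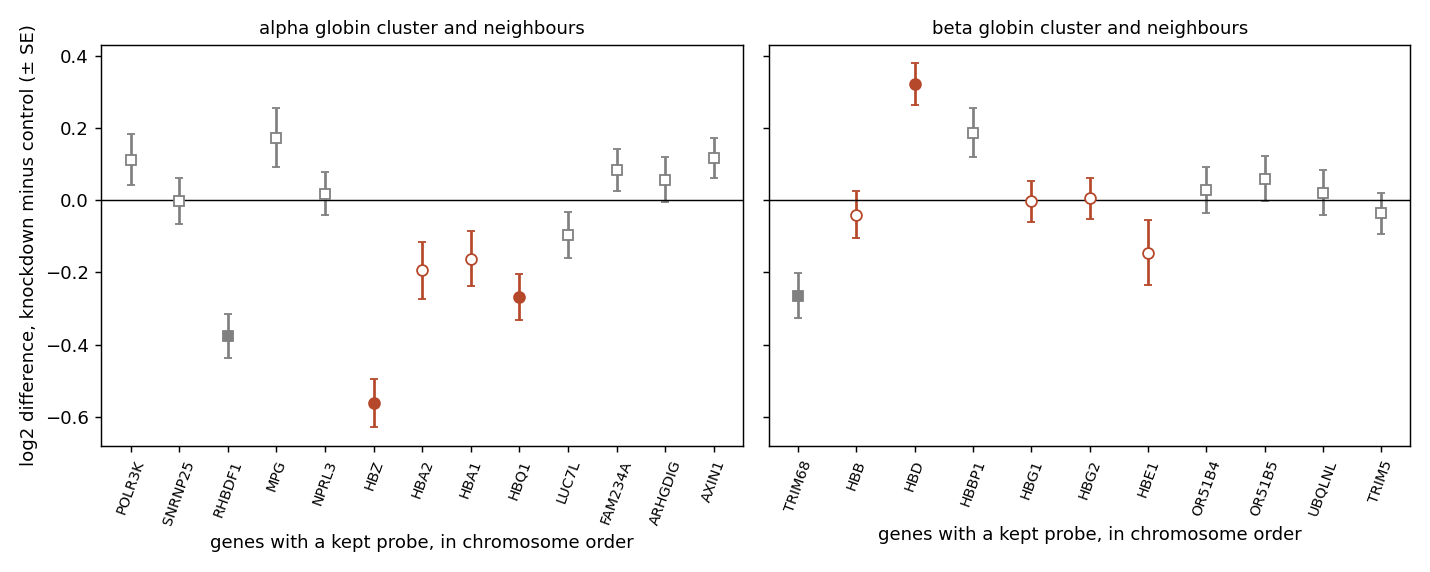
Log2 difference (knockdown minus control ± SE) of genes with a kept probe in the order of RefSeq GRCh38.p14, each by its brightest probe; circles are globin genes, squares neighbours, and filled symbols have an adjusted p under 0.05. HBZ (-0.56), HBQ1 (-0.27) and RHBDF1 (-0.38) are low on chromosome 16 while NPRL3, between HBZ and RHBDF1, is at 0.02. On chromosome 11, HBD (0.32) and the neighbour TRIM68 (-0.27) are filled.

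Seen along chromosome 16, the alpha cluster lies between NPRL3, whose introns hold its main enhancers, and LUC7L. NPRL3 was at 0.02 ± 0.06 and LUC7L at -0.10 ± 0.06, and neither was called (limma adjusted p = 0.899 and 0.418). MPG, a DNA repair glycosylase beyond NPRL3, was at 0.17 ± 0.08 (limma adjusted p = 0.258). RHBDF1, an inactive rhomboid protein next along, read 720.2, 645.9 and 614.7 in the knockdown and 823.4 and 813.1 in the control. RHBDF1 fell by 0.38 ± 0.06 (limma adjusted p = 0.00793), though the call was lost after subtraction of the pooled background (0.0618), with the replicate block (0.058) and without control replicate 1 (0.06). Of 14 measured genes in the list around the cluster, RHBDF1 was the only 1 called, with a median of 0.01 over the list. Among all genes tested, 6.27% were called, 2.56% higher and 3.7% lower.

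In the beta cluster HBD lies between HBB and the pseudogene HBBP1. HBBP1 read 412.7, 414.6 and 386.3 in the knockdown and 319.2 and 357.7 in the control, higher without overlap, but the difference of 0.19 ± 0.07 was not called (limma adjusted p = 0.151). Beyond HBE1 lie genes of the olfactory receptor family. The brighter probe of OR51B5 was at 0.06 ± 0.06 (limma adjusted p = 0.637), whereas its second probe, ILMN_1657002, rose by 0.38 ± 0.06 (limma adjusted p = 0.00658). The probes of this gene thus disagree. Of 9 measured genes in the list around the cluster, TRIM68, a ubiquitin ligase at the edge of the window, was the only 1 called. Among all genes tested, 6.27% were called, 3.7% lower, and the list is short. TRIM68 was at -0.27 ± 0.06 (limma adjusted p = 0.0385), and it lost the call without any 1 array and under 5 other settings. MB, myoglobin, the only globin family gene measured besides HBBP1 and the set, was at -0.05 ± 0.07 (limma adjusted p = 0.737).

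Of 37 measured regulators of globin genes, 1 rose and 1 fell, a share near the 6.27% called among all genes; 28 had positive differences with a median of 0.04, against -0.01 over all genes. LMO2, the adaptor that joins GATA1 and TAL1 in a complex at globin enhancers, was lower: 900.4, 769.3 and 819.8 against 1177 and 1243 (difference -0.60 ± 0.06, limma adjusted p = 0.000561). MYB, a factor known to hold back erythroid maturation, read 10110, 9412 and 8968 against 7199 and 7242 and rose by 0.30 ± 0.06 (limma adjusted p = 0.0196). The MYB call was lost without any 1 of the 5 arrays, with both background corrections and with the replicate block.

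The best-known direct activators, given for their role and chosen after their values were seen, were not called. GATA1, the master erythroid factor, was at 0.11 ± 0.06 (limma adjusted p = 0.358). KLF1, which drives adult beta globin, was at 0.08 ± 0.06 (limma adjusted p = 0.479). NFE2, which binds the distant enhancers, was at 0.07 ± 0.06 (limma adjusted p = 0.575). Of the factors that restrain fetal globin, ZBTB7A was at 0.03 ± 0.06 (limma adjusted p = 0.826), and LYAR, which binds near the gamma genes, at -0.23 ± 0.06 (limma adjusted p = 0.0522). LYAR passed with an offset of 50 (0.0375), with the stricter filter (0.0412), with trend and robust options (0.0177) and with 1 probe per gene (0.0299). It stayed uncalled in the other 8 of 12 alternatives and without any 1 knockdown array. Its second probe was at -0.20 ± 0.07 (limma adjusted p = 0.111). BCL11A, LDB1 and SOX6 are among the 9 listed regulators with no kept probe.

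Of 21 measured genes of haem supply, 1 fell and 0 rose in limma, again near the 6.27% of all genes. ALAS2, which starts haem synthesis in red cell precursors, read 9089, 9111 and 8777 in the knockdown and 11850 and 12200 in the control. It fell by 0.51 ± 0.06 (limma adjusted p = 0.00244), and its second probe fell by 0.43 ± 0.07 (limma adjusted p = 0.00929). On the named probe the call was lost after subtraction of the pooled background (0.0538). HMOX1, which breaks down haem, was at -0.30 ± 0.08 (limma adjusted p = 0.0709), and FECH, which inserts the iron, at -0.20 ± 0.06 (limma adjusted p = 0.0809). HMOX1 passed with 1 probe per gene (0.0459), and it was at -0.59 without a call (0.185) once the pooled background was subtracted. Of the 21, 18 had negative differences with a median of -0.10, against 5876 of 11041 and -0.01 over all genes. Without normalization 11 were negative with a median of -0.02, against 3319 of 11041 and 0.065 over all genes.

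**Figure D4:**
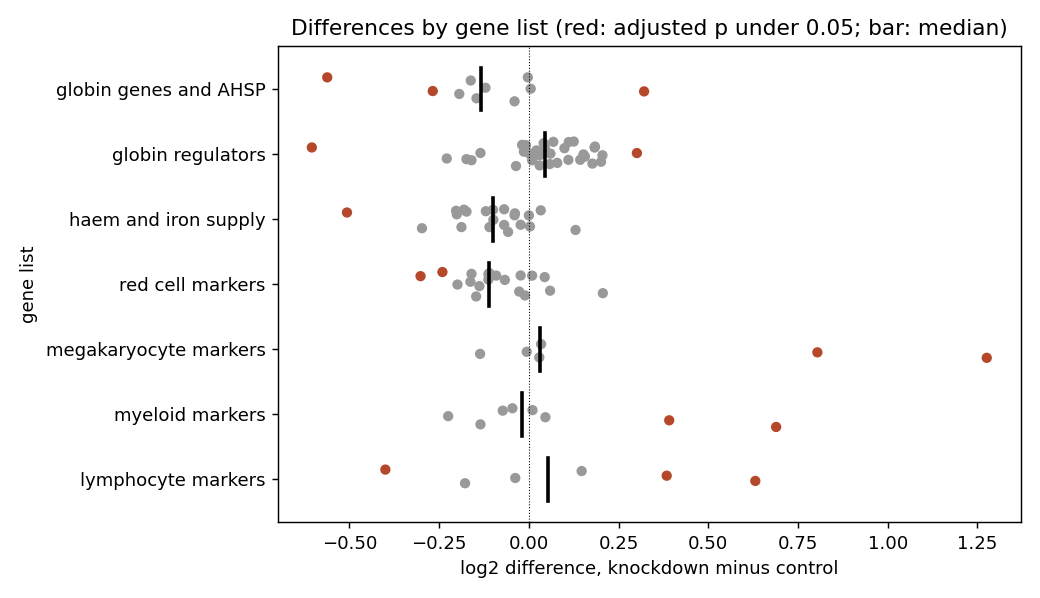
Log2 difference (knockdown minus control) of every measured gene by list, each point 1 gene by its brightest kept probe (vertical scatter is random), bars at the list medians, red for an adjusted p under 0.05. The globin set, haem supply and red cell markers have medians of -0.13, -0.10 and -0.11, and the megakaryocyte list holds the points farthest to the right.

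Markers of blood lineages were set beside the globins. For these lists too, the share called among all genes tested was 6.27%, 2.56% higher and 3.7% lower. Of 19 measured red cell markers, 2 fell and 0 rose in limma: XK by 0.30 ± 0.06 and RHCE by 0.24 ± 0.06, both blood group genes (limma adjusted p = 0.019 and 0.0429). Each of these calls was lost without any 1 array, without normalization and with the replicate block. RHCE, unlike XK, also lost its call with array weights (limma adjusted p = 0.0528) and with both background corrections (0.0809 and 0.0701). Without normalization 0 fell and 1 rose, RHAG, the Rh-associated glycoprotein, at 0.29 (limma adjusted p = 0.0461). The direction of the list's calls thus turned, but in that setting 83.8% of calls over all probes were higher. The list's median was then -0.03, against 0.065 over all genes. After quantile normalization it was -0.11 against -0.01, with RHAG at 0.21 and uncalled. XK, a dim probe, was at -0.64 after subtraction of the pooled background. The list's summed signal was 42277 to 45683 in the knockdown and 43230 to 43397 in the control, most of it from TFRC, the transferrin receptor, which read 29230 to 31610 over the 5 arrays. SLC4A1, the anion exchanger of the red cell membrane, was among 5 with no kept probe.

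Of 6 measured megakaryocyte markers 2 rose, RAB27B by 1.28 ± 0.06 and ITGA2B by 0.80 ± 0.10 (limma adjusted p = 1.56e-06 and 0.00174). Among all genes 2.56% were called higher and 3.7% lower, and each of these lists has few measured genes. The second probe of RAB27B was at 0.04. ITGA2B was at 1.57 after subtraction of the pooled background. The list's summed signal was 2035 to 2137 in the knockdown and 1422 to 1447 in the control, and PF4, VWF, ITGB3 and GP9 were among 8 with no kept probe. Of 8 myeloid markers 2 rose, MS4A3 by 0.69 and FCGR2A by 0.39 (limma adjusted p = 0.000257 and 0.0141), with summed signals of 6249 to 6746 against 5557 to 5695 and with MPO, ELANE and CD33 among 7 with no kept probe. The FCGR2A call was lost with both background corrections (0.0949 and 0.0701), with the replicate block (0.0745), and without control replicate 2 (0.0989) or knockdown replicate 2 (0.0542). Of 3 probes each, 1 of MS4A3 was at 0.14 and 1 of FCGR2A at 0.10, both uncalled. Of 6 lymphocyte markers, PRF1 rose by 0.63, CD3D rose by 0.38 and CD247 fell by 0.40 (limma adjusted p = 0.000616, 0.012 and 0.00658), with summed signals of 4605 to 4785 against 3582 to 3878. The CD3D call was lost with both background corrections (0.0921 and 0.0674) and without control replicate 1 (0.085) or knockdown replicate 2 (0.0629). The CD247 call was lost with the pooled background subtracted (0.0531) and without control replicate 2 (0.0519), and its second probe was at -0.16 (limma adjusted p = 0.225). The summed signals are of deposited values and include the called genes, so they do not show a rise across a list. RAB27B read 674.3 to 746.2 in the knockdown against 267.3 and 268.6 in the control. FCGR2A read 1401 to 1531 against 1090 and 1032, and CD3D 2839 to 2938 against 1952 and 2247. The part of these 3 lists in the globin differences was not tested.

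Probes nearest to each called globin were found by the root mean square difference of their centred log2 values over the 5 arrays, among 13331 probes of other genes detected on all arrays. The arrays fall into the same groups for every probe, so nearness mostly reflects a change of like size. Nearest to HBZ were JMY (0.04), RNF144A (0.06), HEY2 (0.06), NUPR1 (0.06) and ALAS2 (0.06). NUPR1, a stress-induced chromatin protein, was at -0.56 on the matched probe and -0.65 on its brighter one. JMY, an actin nucleator, was at -0.54 on the matched probe but at -0.05 on its brighter probe.

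Nearest to HBQ1 were TRIM68 (0.01), CDK13 (0.01), PALM (0.02), HES4 (0.02) and ANXA2P1 (0.02), with differences from -0.29 to -0.24. The brighter probes of CDK13 and ANXA2P1 were at -0.13 and -0.13 and were not called (limma adjusted p = 0.293 and 0.446). Nearest to HBD were KBTBD8 (0.01), RARB (0.02), PTGDR2 (0.02), NCALD (0.02) and SLC30A1 (0.02), with differences from 0.30 to 0.33. RARB is a retinoic acid receptor and SLC30A1 a zinc exporter. A further RARB probe, ILMN_1699723, was at 0.83 (limma adjusted p = 0.00013), so the probes of RARB disagree in size.

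**Figure D5:**
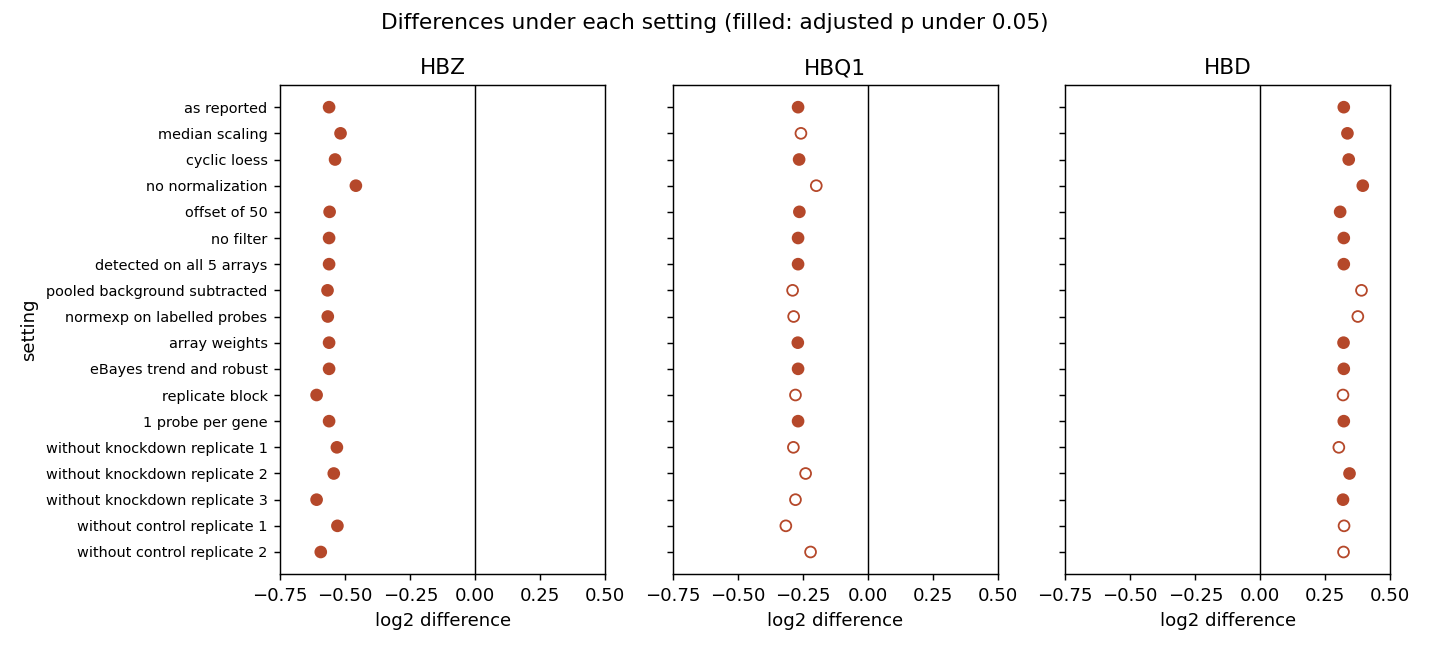
Log2 difference (knockdown minus control) of HBZ, HBQ1 and HBD as reported and under each alternative setting or left-out array; filled points have an adjusted p under 0.05 in limma. HBZ is filled throughout between -0.61 and -0.46, HBQ1 is open without any 1 array, and HBD is open in 6 of 17 alternatives.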

How the data were processed

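The bead intensity values the authors deposited are on a linear scale, neither background corrected nor normalized as far as the values show; per the submitters' processing notes the software was GenomeStudio 2009.2, with no settings given. A further deposited table gives the same intensities and a detection p-value for 47321 probes, per the file headers; its 5 signal columns match no sample name and served only as a key and for the pooled background. All 19144 labelled rows matched exactly 1 of its probes by their 5 signals, and 47 carried that probe's own ID. Platform symbols (14581 probes with 1, 2 with several, 4561 with none) were updated by gene identifier for 14574 probes.

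Values were log2 transformed after adding 16 and quantile normalized. A limma 3.58.1 fit (R 4.3.3; lmFit, eBayes) compared the groups over 19105 probes with 3 residual degrees of freedom, 10.1 with the prior, and Benjamini-Hochberg adjustment over all of them. The number of arrays limits precision (median SE 0.07). The fit was tested on simulated data, where it called 66% of changes of -0.5, 68% of 0.5, 100% of -1 and 98% of 1. Smaller changes were not simulated. Lists take each gene's brightest kept probe. Every member probe was named, as were the called members of each list, or the 2 of smallest p where none was called, LMO2, and the 5 probes nearest to each called member. The members and lists were chosen with earlier results of these data known; MPG, NPRL3, LUC7L, OR51B5 and some regulators and haem genes were added after their values were seen.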

Additional observations from a re-analysis of the deposited data

How the results depend on the processing

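HBZ and LMO2 kept direction and call under all 12 alternatives and all 5 left-out arrays: HBZ between -0.61 and -0.46 (limma adjusted p from 4.11e-05 to 0.0483), and LMO2 between -0.69 and -0.54. The 1 higher and 2 lower member probes became 1 and 1 with median scaling or no normalization, and 0 and 1 with the pooled background subtracted, normexp on the labelled probes, or the replicate block. Without 1 array, 0 to 1 were higher and 1 was lower in each case, and under the IDs printed beside the values, which give other probes' signals, 1 and 1. The cause was not tested. Differences near 0 changed sign without a call: HBG2 to -0.042 (median scaling), -0.055 (cyclic loess) and -0.001 (replicate block), HBG1 to 0.011 (no normalization) and 0.004 (replicate block), HBB to 0.043 and MB to 0.007 (no normalization). With 1 array left out, HBG1 ran from -0.017 to 0.01, HBG2 from -0.019 to 0.03 and NPRL3 from -0.013 to 0.049. Over all probes, 449 higher and 519 lower became 791 and 153 without normalization (83.8% higher against 46.4%, with the median of all probes at 0.07), 130 and 92 with the background subtracted (58.6% higher), 196 and 167 with normexp and 194 and 145 with the replicate block, with 0 calls opposite. Without 1 array 175 to 240 were higher and 126 to 218 lower. Replicate numbers could not be shown to pair the arrays (deviations of the replicate 1 and replicate 2 arrays correlated at -0.22 and -0.09 across probes), so the block is an alternative only. Signal over background limits HBB, AHSP and other dim probes such as XK, HMOX1 and ITGA2B, whose differences grow once background is subtracted. The top of the signal range may limit HBG1 and HBG2, which was not tested.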
